A study of Mus musculus with 4 samples.

Results

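A set of 7 genes of the Hippo-YAP pathway were followed in single-cell transcriptomes of mouse embryonic stem cells (mESC). They were taken by symbol, and all 7 were found among the 32285 genes of the matrix. They comprise the coactivator gene Yap1, the genes of its DNA-binding partners Tead1 and Tead2, and 4 widely used YAP target genes, namely Ccn1 (formerly Cyr61), Ccn2 (formerly Ctgf), Ankrd1 and Amotl2. Each was described per library and in keratin-high cells, defined as cells with at least 5 unique molecular identifiers (UMIs, each standing for 1 captured transcript molecule) of Krt8 and Krt18 together, against all other kept cells. The study profiled 2 replicates of WT E14tg2a.4 cells, a male mESC line, and 2 replicates of Srrm2 hKO cells. The latter are a single gene-trap line (CG0630) made in E14tg2a.4, with a heterozygous truncation of Srrm2, a splicing factor gene. Both lines were kept with the self-renewal cytokine LIF, and the labels give 24 h or 72 h in serum-free medium before collection without saying which sample had which. The methods of the study instead describe 48 h under regular conditions for all single-cell cultures, so the growth time is uncertain. The 4 libraries are joined in 1 matrix whose barcodes carry a library number from 1 to 4, and no source used here ties a number to a sample. WT and Srrm2 hKO could therefore not be compared, the 4 libraries stand as single cultures, and no p-value is given.

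The Hippo pathway is a kinase cascade that holds back YAP, the product of Yap1. In adherent cells with a tense actin cytoskeleton or few neighbours, YAP enters the nucleus, binds TEAD proteins and activates genes such as Ccn1 and Ccn2. In the early mouse embryo YAP and TEAD activity is known for separating outer trophectoderm, which expresses Krt8 and Krt18, from the inner cell mass. Ccn1 and Ccn2 encode secreted matricellular proteins, Ankrd1 encodes an ankyrin-repeat protein best known from muscle, and Amotl2 encodes an angiomotin family protein that itself binds and restrains YAP.

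A cell filter rebuilt from the methods left 31989 of 41142 barcodes, with 7464 to 8514 cells and 166839268 to 200180473 UMIs per library. Keratin-high cells numbered 116, 111, 852 and 708 in libraries 1 to 4, or 1.43%, 1.30%, 10.8% and 9.49% of the kept cells (exact 95% binomial intervals 1.18 to 1.71, 1.07 to 1.57, 10.1 to 11.5 and 8.83 to 10.2). Of the kept cells, 211 shared their 16-base barcode with a cell of another library, and leaving them out changed no call of a YAP gene. Levels are UMIs per 1000000 UMIs of the same cells (CPM), with exact 95% Poisson intervals, and folds have exact conditional intervals. All intervals cover counting error only. A count of 0 was taken to allow up to 3 counts. 3′ UMI counts do not grow with transcript length, but this alone does not make levels of different genes a measure of their relative abundance. The targeted gene Srrm2 had levels of 387, 533, 238 and 356 CPM, and in keratin-high against other cells it stood at a fold of 1.07, 1.04, 1.00 and 0.956.

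TEAD proteins recognise GGAATG, or CATTCC on the opposite strand. RefSeq promoter windows (GRCm38.p6) were at hand for 5 of the 7 genes, and the 250 bases before each start site were searched on both strands. The hexamer occurred in 4 of these 5 windows, and 12.6% of all 32851 such windows hold it. The 30 bases around each match are shown because they are the letters through which TEAD proteins could contact the genes described here. They are written in the direction of the gene with the hexamer in capitals.
Ccn1, minus strand, chr3:145650071-145650100: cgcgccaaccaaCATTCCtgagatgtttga
Ankrd1 upstream match, minus strand, chr19:36120037-36120066: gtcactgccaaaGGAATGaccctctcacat
Ankrd1 downstream match, minus strand, chr19:36119950-36119979: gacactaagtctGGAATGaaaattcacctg
Amotl2, plus strand, chr9:102717727-102717756: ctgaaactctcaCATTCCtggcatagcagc
Yap1, minus strand, chr9:8004720-8004749: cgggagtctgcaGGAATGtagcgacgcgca
The first base of the hexamer lay 103 bases before the start in Ccn1, 210 and 123 in Ankrd1, 65 in Amotl2 and 141 in Yap1. The Ankrd1 and Amotl2 stretches lie in untranslated exons of transcripts that GENCODE M21 starts farther upstream, and the Ccn1 and Yap1 stretches overlap no annotated gene. The window of Tead2 held no match in these letters. No CArG box, the site of serum response factor (SRF), was matched in any of the 5 windows, and 1.47% of all windows hold one. A match describes letters and does not show binding.

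The 4 target genes were higher in keratin-high cells than in other cells in every library. Their summed level was 268, 276, 392 and 272 CPM in keratin-high cells of libraries 1 to 4, compared with 23.4, 39.9, 47.4 and 63.2 CPM in the other cells. The lowest keratin-high value thus lay above the highest value of the other cells. How many of all genes separate the classes in this way was not computed, so such gaps only describe the genes named. The folds of the sum were 11.4 (95% interval 10.7 to 12.3), 6.93, 8.26 and 4.30 (4.16 to 4.44). The keratin-high cells held between 1.68% and 14.7% of the UMIs of a library. Their depth also differed, with a median of 26481 to 30269 UMIs per cell compared with 18317 to 21837 in the other cells. With the other cells weighted to the depth of the keratin-high cells, the folds of the sum were 9.51, 6.60, 7.32 and 4.10. The fold of library 2 moved most with the keratin cut, to 3.75 at 3 UMIs and 15.3 at 10.

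Over all genes with enough counts, 7.25% of 10947 exceeded a 1.5-fold difference upwards in keratin-high cells of all 4 libraries, and 5.91% exceeded it downwards in all 4. Of the 6 YAP genes with enough counts, 3 met this rule upwards (Ccn1, Ccn2 and Amotl2), 3 did not (Yap1, Tead1 and Tead2) and 0 met it downwards. Ankrd1 had too few counts in libraries 1 and 2 to be judged by the rule. Ccn1 had enough counts in library 1 only through its keratin-high UMIs, since its level in other cells predicts 4.08 UMIs there against the 5 required, so its being judged is not independent of its difference. With the filter set on other cells alone, 2 of 5 YAP genes met the rule upwards (Ccn2 and Amotl2), against 6.99% of 10904 genes. The median over libraries of the log2 fold was then 0.77 over the 5 genes and 0.03 over all.

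**Figure D1:**
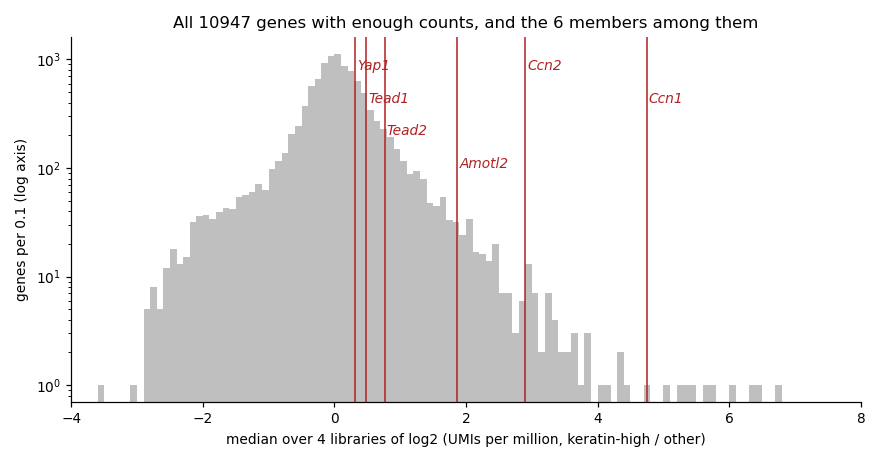
Histogram of the median over 4 libraries of the log2 fold of keratin-high over other cells, for every gene with enough counts, on a log axis of gene number. Vertical lines mark the 6 YAP genes among them; Ccn1 (4.75), Ccn2 (2.90) and Amotl2 (1.87) stand in the right tail, while Yap1 (0.32), Tead1 (0.48) and Tead2 (0.77) stand on the right shoulder of the main peak.

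Ccn1 (ENSMUSG00000028195, chromosome 3, 145646976 to 145649981, minus strand, GRCm38) differed most among the YAP genes judged. In keratin-high cells it was at 99.9 CPM (90.1 to 111), 107 (96.4 to 119), 150 (145 to 154) and 96.8 CPM (92.7 to 101) in libraries 1 to 4. In other cells it was at 1.07 CPM (0.92 to 1.24), 3.29 (3.04 to 3.56), 6.77 (6.36 to 7.21) and 10.5 CPM (10.0 to 11.1). The level of Ccn1 thus differed up to 1.55-fold between libraries in keratin-high cells, while in other cells it differed 9.82-fold between library 4 and library 1. The fold of keratin-high over other cells was accordingly largest in library 1, at 93.1 (77.6 to 112), and smallest in library 4, at 9.18 (8.60 to 9.80), with 32.6 and 22.1 in libraries 2 and 3. The fold of library 2 depended on the keratin cut, with 15.8 at 3 UMIs and 74.3 at 10, where the class held only 36 cells. The keratin-high cells supplied 68.5%, 35.8%, 79.2% and 56.6% of all Ccn1 UMIs in libraries 1 to 4. Within them the signal was uneven, since the tenth of cells with the most Ccn1 held 53.4%, 59.6%, 35.9% and 47.3% of its UMIs.

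Ccn2 (ENSMUSG00000019997, chromosome 10, 24595442 to 24598683, plus strand) had smaller folds than Ccn1 in every library. It was at 73.4, 95.9, 123 and 77.3 CPM in keratin-high cells and at 7.50, 13.0, 16.3 and 16.3 CPM in other cells of libraries 1 to 4. The classes did not overlap, which, without the share over all genes, only describes this gene. The folds were 9.79 (8.57 to 11.2), 7.40 (6.57 to 8.32), 7.56 (7.16 to 7.97) and 4.73 (4.44 to 5.04). A few cells carried much of the signal. The tenth of keratin-high cells with the most Ccn2 held 49.8%, 72.8%, 43.0% and 55.6% of its UMIs in libraries 1 to 4, and 1 cell of library 2 alone held 99 of 323. The fold of library 2 was 3.68 with the keratin cut at 3 UMIs, 16.8 with the cut at 10 and 3.89 without cells low in mESC markers, which are described further on; that of library 4 was 7.13 at a cut of 10.

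Amotl2 (ENSMUSG00000032531, chromosome 9, 102716672 to 102733418, plus strand) was the most evenly spread of the 4 targets. It was at 93.1, 66.5, 115 and 82.6 CPM in keratin-high cells, where 66.7% to 83.2% of cells had a UMI before thinning. In other cells it was at 14.9, 23.6, 24.2 and 36.3 CPM, so that the lowest keratin-high library still lay above the highest value of other cells. Without the share over all genes, this gap only describes Amotl2. The folds were 6.26 (5.58 to 7.0), 2.81 (2.45 to 3.22), 4.73 (4.50 to 4.97) and 2.28 (2.16 to 2.40), and that of library 2 was 4.54 with the keratin cut at 10 UMIs.

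Ankrd1 (ENSMUSG00000024803, chromosome 19, 36111961 to 36120099, minus strand) was rare and almost confined to keratin-high cells. These held 7 of 7 Ankrd1 UMIs in library 1, 23 of 26 in library 2, 111 of 130 in library 3 and 322 of 326 in library 4. The corresponding levels were 1.84 CPM (0.74 to 3.79), 6.83 (4.33 to 10.2), 4.38 (3.61 to 5.28) and 14.9 CPM (13.3 to 16.6) in keratin-high cells, and 0, 0.015, 0.13 and 0.026 CPM in other cells. In library 1 the fold was 100 with 3 counts allowed over the other cells, and its exact lower limit was 61.8. In the other libraries the folds were 448 (135 to 2331), 33.9 (20.7 to 58.5) and 567 (219 to 2093). These folds rest on few UMIs in the other cells and moved widely with the settings. That of library 2 was 148 at a keratin cut of 3 UMIs and 1053 at a cut of 10, and that of library 4 was 271 at a cut of 3 and 929 without cells of high UMI count (over 2 times the median of their library). The fold of library 3 was 425 without cells that held a fibroblast marker UMI, and that of library 1, against the same 3 counts, was 56.8 without cells of high UMI count. Even among keratin-high cells only 5.17% to 9.74% had a UMI of Ankrd1. A single cell of library 4 held 114 UMIs of Ankrd1, and without it the library's keratin-high level was 9.62 CPM. That cell also held 39 UMIs of Ccn1, 73 of Ccn2, 58 of Krt8 and 87 of Krt18 among its 20434, and 0 of Pou5f1, Sox2, Nanog, Zfp42 and Esrrb, which mark mESC. In library 3 a cell outside the keratin-high class held 12 of the 19 UMIs of Ankrd1 counted there. It had 0 UMIs of the same 5 mESC markers. Of the 6 fibroblast markers it held 8 UMIs of Col3a1, 1 of Lum and 0 of Col1a1, Col1a2, Dcn and Pdgfra. The cell of library 4 held 3 of Pdgfra and 0 of the other fibroblast markers.

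**Figure D2:**
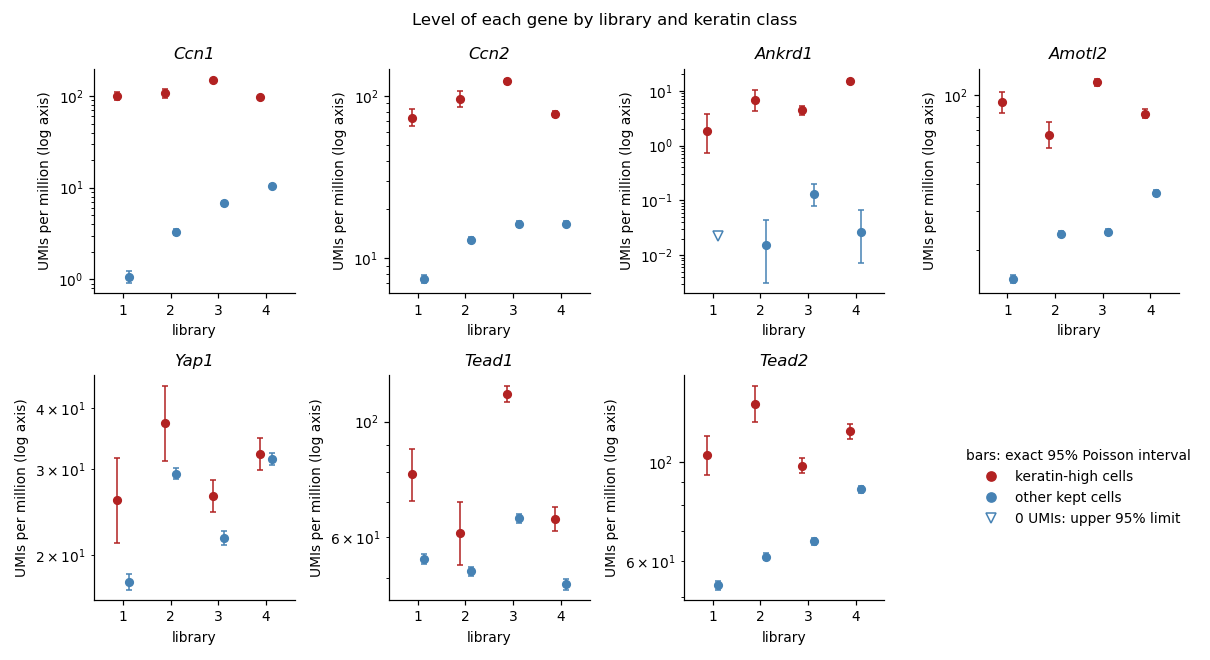
Level of each gene in UMIs per 1000000 (log axes that differ between panels) in keratin-high cells (red) and other kept cells (blue) of libraries 1 to 4, with exact 95% Poisson intervals; the open triangle gives the upper limit where no UMI was counted. For Ccn1, Ccn2, Ankrd1, Amotl2 and Tead2 every red point lies above every blue point, whereas for Yap1 and Tead1 the red and blue points of different libraries interleave. The share of all genes without overlap was not computed.

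Yap1, Tead1 and Tead2 had smaller folds than each of the 4 targets in the same library, although Tead2 came near Amotl2 in library 2 (2.20 and 2.81). Yap1 (ENSMUSG00000053110, chromosome 9, 7931999 to 8004596, minus strand) was at 26.0, 37.4, 26.5 and 32.3 CPM in keratin-high cells and at 17.7, 29.4, 21.7 and 31.5 CPM in other cells. Its fold was 1.47 (1.19 to 1.80), 1.27 (1.06 to 1.52), 1.22 (1.12 to 1.33) and 1.02 (0.94 to 1.11), and the interval of library 4 includes 1. Its direction in library 4 turned with the scaling, to 0.97 under the TMM scaling of edgeR.

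Tead1 (ENSMUSG00000055320, chromosome 7, 112679318 to 112906807, plus strand) was at 79.2, 61.2, 113 and 65.1 CPM in keratin-high cells and at 54.5, 51.6, 65.3 and 48.7 CPM in other cells. The folds were 1.45, 1.19, 1.73 and 1.34, of which that of library 3 exceeded 1.5. With the class cut at 3 keratin UMIs, the folds of libraries 2 and 4 turned to 0.81 and 0.99. With the cut at 10 UMIs, Tead1 was at least 1.5-fold higher in every library, as were 709 of 9108 genes, with its largest fold, 2.17, in library 2.

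Tead2 (ENSMUSG00000030796, chromosome 7, 45215753 to 45233644, plus strand) was at 104, 135, 98.1 and 117 CPM in keratin-high cells and at 52.9, 61.4, 66.4 and 86.8 CPM in other cells. The 2 classes did not overlap, which, without the share over all genes, only describes this gene. The folds of 1.96 (1.77 to 2.17), 2.20 (2.00 to 2.42), 1.48 (1.41 to 1.54) and 1.35 (1.29 to 1.41) passed 1.5 in libraries 1 and 2 only. Tead2 did meet the rule once cells with 5 or more UMIs of Fgf5 and Pou3f1, markers of the formative state of pluripotency, were removed from the other cells. With these cells removed 1029 of 10925 genes met it upwards, against 794 of 10947 before.

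**Figure D3:**
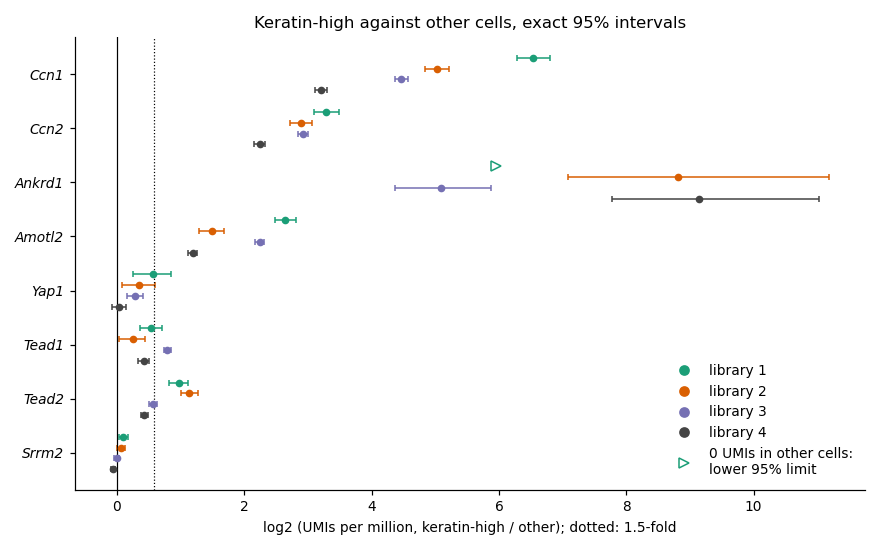
Log2 fold of keratin-high over other cells per gene and library, with exact 95% intervals (solid line at no difference, dotted line at 1.5-fold, open triangle a lower limit where other cells held no UMI). The 4 targets lie to the right of the dotted line in every library, Yap1 lies to the left of it, Tead1 and Tead2 lie on both sides of it, and Srrm2 lies near 0.

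Formative cells outside the keratin-high class were compared with the remaining other cells. The same cut, 5 UMIs of Fgf5 and Pou3f1, was also applied to keratin-high cells. It was reached by 59.5%, 73.0%, 43.8% and 68.9% of them in libraries 1 to 4. The classes thus overlap by this cut, and only cells outside the keratin-high class are compared here. In keratin-high cells the cut rested mostly on Pou3f1, at 201 to 291 CPM against 3.12 to 32.7 CPM for Fgf5. Otx2, another formative marker, was lower there than in other cells (log2 -0.22, -0.18, -1.20 and -0.61), although the interval of library 1 includes no difference. Keratin-high cells were also deeper and reach a fixed UMI count more easily, so no shared state is read from this overlap. The formative class outside the keratin-high cells held 91, 1223, 411 and 2166 cells in libraries 1 to 4. Tead2 was at 104, 106, 96.6 and 113 CPM in them, which is close to its keratin-high level in libraries 1, 3 and 4, where the intervals overlap, but under it in library 2 (102 to 109 against 123 to 148 CPM), and at 52.1, 52.4, 63.7 and 71.7 CPM in the remaining cells. Ccn1 was at 11.1, 7.62, 21.8 and 15.6 CPM in formative cells compared with 0.90, 2.41, 5.42 and 7.61 CPM in the remaining cells, so it was higher in formative cells but well under its keratin-high level. Amotl2 was likewise higher in formative cells, at 55.9, 35.6, 55.8 and 47.0 CPM against 14.2, 21.2, 21.4 and 30.1 CPM. Tead1 ran the other way, at 47.0, 29.3, 57.9 and 30.7 CPM in formative cells and 54.6, 56.1, 65.9 and 59.2 CPM in the remaining cells. Its intervals in library 1 overlap (39.2 to 55.9 and 53.4 to 55.7 CPM). Ankrd1 had 0, 0, 0 and 1 UMI in the formative cells of libraries 1 to 4.

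The level of the targets went up with the keratin content of the cells. Cells without a keratin UMI had a target sum of 20.7, 35.8, 37.0 and 51.4 CPM in libraries 1 to 4. Cells with 1 to 4 keratin UMIs had 39.7, 51.1, 68.2 and 75.0 CPM, those with 5 to 19 had 163, 151, 288 and 165 CPM, and those with 20 or more had 393, 716, 438 and 591 CPM. The order of the 4 keratin ranges was the same in every library, although the highest range of library 2 held only 27 cells. At the boundary of the class, cells with 3 or 4 keratin UMIs had a target sum of 87.4, 76.5, 126 and 88.2 CPM, and cells with 5 or 6 had 132, 122, 236 and 127 CPM. Deeper cells can reach a keratin count more easily, and the median depth of the ranges was 18012 to 21360 UMIs at 0 keratin UMIs and 23531 to 30261 UMIs at 20 or more. With the class instead set at 2 keratin UMIs among 5000 drawn from each cell, the folds of the target sum were 11.1, 6.99, 7.60 and 4.82.

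Tead1 and Tead2 traced different courses over the same ranges in libraries 2 and 4, but not in library 3. In libraries 2 and 4, Tead1 went from 55.6 and 57.8 CPM without keratin UMIs to 40.4 and 42.7 CPM at 5 to 19, and stood at 134 and 132 CPM at 20 or more. Tead2 in the same 2 libraries went from 54.4 and 72.9 CPM without keratin UMIs to 141 and 121 CPM at 5 to 19, and was at 114 and 105 CPM at 20 or more. In library 3 both genes were highest at 20 or more keratin UMIs, with Tead1 at 66.0, 63.8, 92.4 and 122 CPM and Tead2 at 62.7, 73.7, 90.7 and 101 CPM over the 4 ranges. In library 1 Tead1 was at 55.3, 49.5, 60.7 and 101 CPM and Tead2 at 50.2, 69.1, 104 and 103 CPM. Yap1 went from 17.2 CPM (16.6 to 18.0) without keratin UMIs to 27.5 CPM (20.3 to 36.5) at 20 or more in library 1 and from 28.7 CPM (27.8 to 29.6) to 40.2 CPM (27.1 to 57.3) in library 2. In libraries 3 and 4 it lay between 20.9 and 29.3 CPM and between 30.5 and 34.3 CPM.

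**Figure D4:**
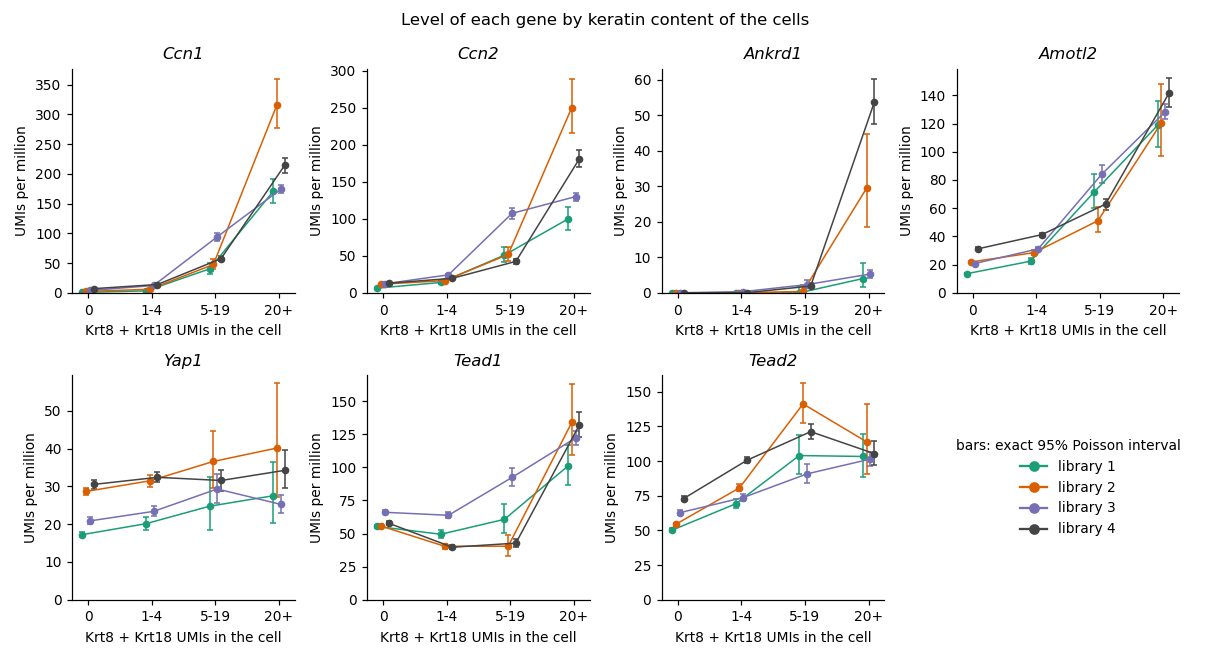
Level of each gene in UMIs per 1000000 against the keratin UMIs of the cell (4 ranges), 1 line per library, with exact 95% Poisson intervals; axes start at 0 and differ between panels. Ccn1, Ccn2, Ankrd1 and Amotl2 are highest in cells with 20 or more keratin UMIs in every library, Yap1 goes from 17.2 to 27.5 CPM in library 1 and spans less in libraries 3 and 4, and Tead1 dips before the last range in libraries 2 and 4.

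The share of cells with a UMI was compared after every cell had been thinned to 5000 UMIs, which left out 0 cells. A UMI of any of the 4 targets was found in 57.8% (exact binomial interval 48.2 to 66.9), 52.3% (42.6 to 61.8), 71.8% (68.7 to 74.8) and 57.3% (53.6 to 61.0) of keratin-high cells. In other cells the shares were 10.2%, 16.6%, 18.0% and 23.7%. Without thinning the shares were 86.2%, 85.6%, 94.4% and 92.4% in keratin-high cells, and 32.4%, 51.2%, 47.7% and 60.6% in other cells. Ccn1 was found in 24.1% to 41.4% of thinned keratin-high cells compared with 0.475% to 4.43% of other cells, and Ankrd1 in 0.862% to 4.38% compared with 0% to 0.0426%. For Ankrd1 in library 1, 0 of 8002 thinned other cells had a UMI. This allows a share of up to 0.0375% at 3 cells and 0.0461% by the exact binomial interval, and limits cells with a UMI, not cells that express the gene. Yap1 was found in 11.2% to 18.0% of thinned keratin-high and 8.44% to 14.0% of other cells. For Tead1 in library 2 the share of keratin-high cells, 13.5% (7.77 to 21.3), lay under the 21.6% of other cells although its level was higher, so no order was read from it.

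**Figure D5:**
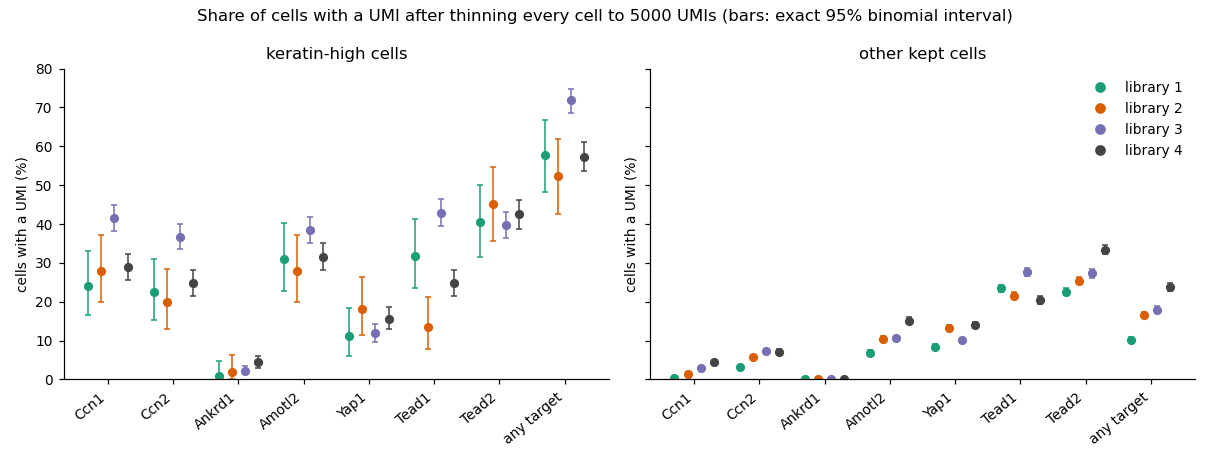
Share of cells with a UMI of each gene, or of any of the 4 targets, after thinning to 5000 UMIs, in keratin-high cells (left) and other kept cells (right) of each library, with exact 95% binomial intervals. The shares of Ccn1, Ccn2, Amotl2 and any target are higher on the left in every library, and Yap1 differs little between the sides.

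Pairs of targets were looked for in the same thinned cells. In the keratin-high cells of library 3, 20.8% (18.1 to 23.7) had a UMI of both Ccn1 and Ccn2, which is 1.36 times the product of their shares (1.19 to 1.55, taking the product as fixed). The same ratio was 1.59 (0.78 to 2.82), 1.63 (0.80 to 2.88) and 1.65 (1.33 to 2.01) in libraries 1, 2 and 4, so its interval includes 1 in the small classes of libraries 1 and 2. In other cells the ratio for Ccn1 and Ccn2 was 1.58 (0.19 to 5.72), 2.15 (1.17 to 3.60), 3.53 (2.63 to 4.63) and 2.29 (1.70 to 3.03), so finding both together was not particular to the keratin-high class. For Ccn2 and Amotl2 the keratin-high ratio was 1.12, 1.63, 1.09 and 1.23, with 1 inside every interval. For Ccn1 and Amotl2 it was 0.92, 1.27, 1.19 and 1.36, and the interval lay above 1 in libraries 3 and 4 only. In other cells the ratio was 1.69, 1.13, 1.88 and 1.30 for Ccn2 and Amotl2, and 3.05, 1.53, 3.03 and 1.53 for Ccn1 and Amotl2. For both pairs the interval there lay above 1 in libraries 1, 3 and 4 and included 1 in library 2. In keratin-high cells Ankrd1 and Amotl2 gave 0.82 (0.30 to 1.78) in library 3 and 2.04 (1.25 to 3.13) in library 4. Ccn1 with Yap1 gave 1.27, 0.90, 1.12 and 1.13 in keratin-high cells, and the interval included 1 in every library. At least 3 of the 4 targets were found together in 4.31% to 10.9% of thinned keratin-high cells and in at most 0.412% of other cells. The higher shares of the single targets in keratin-high cells also raise this value. No product of shares was formed for it, so no excess is read from it.

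Markers of other cell types moved with the keratin class and are given for each whole list. The 5 mESC markers summed to 906, 1068, 624 and 1002 CPM in keratin-high cells and 2029, 1933, 1686 and 1599 CPM in other cells. Sox2, Nanog, Zfp42 and Esrrb were at least 1.5-fold lower in every library, as were 5.91% of all genes with enough counts, and Pou5f1 was not. The 6 fibroblast markers summed to 10.7 to 55.5 CPM in keratin-high and 0.239 to 2.70 CPM in other cells, with Lum at 0 in every keratin-high class. The 6 trophectoderm markers summed to 20.5 to 60.2 CPM against 2.80 to 3.87 CPM. Krt7 made up most of the list in libraries 1 and 3, and Elf5 was at 0 in the keratin-high cells of libraries 1, 2 and 4. The 5 primitive endoderm markers reached 1.05 to 7.23 CPM against 0.640 to 0.926 CPM, and the 4 mesoderm or streak markers 8.78 to 17.8 CPM against 1.58 to 3.77 CPM. These sums did not rest on every member. Higher in all 4 libraries, at any size, were 3 of the 6 fibroblast, 4 of the 6 trophectoderm and 3 of the 5 primitive endoderm markers. Of the 4 mesoderm or streak markers T and Eomes were, while the folds of Mixl1 and Mesp1 had both signs. The share of all genes higher at any size was not computed, so no excess is read from these counts. Of these markers only Krt7 had enough counts to be judged, and only through its keratin-high UMIs. Gata4 and Gata6 were at 0.263 CPM in keratin-high cells of library 1, under the 0.789 CPM that 3 counts make there. Of the 3 formative markers, which summed to 216 to 403 CPM against 37.2 to 296 CPM, Pou3f1 was at least 1.5-fold higher in every library. The list did not move as one, since Otx2 had log2 folds of -0.22, -0.18, -1.20 and -0.61 and Fgf5, too low to be judged, had 3.82, 2.08, 1.03 and 0.03.

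Some keratin-high cells had few or no mESC transcripts. Under 5 UMIs of the 5 mESC markers were counted in 14, 9, 259 and 40 keratin-high cells of libraries 1 to 4, that is 12.1%, 8.11%, 30.4% and 5.65%, and in 4, 3, 53 and 37 other cells, at most 0.753%. These cells held 17.3%, 35.6%, 37.2% and 19.2% of the target UMIs of the keratin-high class. They also held 1 of 7, 7 of 23, 57 of 111 and 202 of 322 of its Ankrd1 UMIs, with 114 of the 202 in 1 cell. Their target sum was 706, 1615, 735 and 1416 CPM, compared with 238, 190, 307 and 228 CPM in the keratin-high cells that kept the markers. Outside the keratin-high class the few cells low in mESC markers also stood above the rest in target sum, at 107, 270, 610 and 99.9 CPM compared with 23.4, 39.9, 44.5 and 63.1 CPM. These values rest on 4, 9, 457 and 33 target UMIs. In library 3 the same cells held 16 of the 19 Ankrd1 UMIs of other cells. Shallow cells fall under the cut more easily. Cells low in mESC markers had a median depth of 17668 to 22200 UMIs in the keratin-high class, against 26481 to 30269 for that class. Outside it they had 8507 to 12105 UMIs, against 18317 to 21837. Without cells low in mESC markers the folds of the target sum were 10.1, 4.76, 6.89 and 3.61. Ccn1, Ccn2 and Amotl2 still met the rule upwards, as did 672 of 10822 genes. For Ccn1 this carries the limit given above, that it was judged only through its keratin-high UMIs in the main setting. A fibroblast marker UMI was present in 9.48%, 10.8%, 28.9% and 6.21% of keratin-high cells. It was present in 8 of 14, 5 of 9, 147 of 259 and 19 of 40 of those low in mESC markers, so the sets overlap. Without cells of either class that held a fibroblast marker UMI, the folds of the sum were 10.2, 6.26, 7.33 and 3.79. These cuts were chosen after the values had been seen.

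The other genes of the pathway were taken from lists. These lists were chosen with earlier results of these data known, so their counts beside those of all genes only describe the genes listed. Of 22 Hippo core genes, which encode the kinases, their scaffolds and the regulators of YAP, 19 had enough counts. Of these, 4 were at least 1.5-fold higher in every library (Amotl1, Lats2, Frmd6 and Wwc2) and 0 were as much lower in every library, against a background of 7.25% and 5.91%, and the median log2 fold of the 19 was 0.47. Amotl1, a second angiomotin family gene, was at 62.9, 46.6, 83.1 and 47.6 CPM in keratin-high and 6.14, 7.93, 10.3 and 13.6 CPM in other cells. Lats2, a kinase of YAP that is itself a YAP target, was at 8.94, 6.53, 19.4 and 7.44 CPM against 1.43, 2.16, 1.80 and 1.69 CPM. Frmd6, a FERM domain gene, had log2 folds of 1.31, 1.34, 2.10 and 0.98. Of the upstream kinase genes, Stk3 had folds of 1.03, 0.56 (0.35 to 0.86), 1.28 (1.14 to 1.43) and 1.00, thus under 1 in library 2 and above 1 in library 3, and Stk4 had 1.21, 1.13, 1.05 and 0.97. Folds under 1 in all 4 libraries were found for Nf2, Wwc1 and Taok2. They were clearest for Nf2, the gene of the pathway activator merlin (log2 -0.64, -0.69, -0.96 and -0.45), with every interval below 1. The folds of Wwc1 were 0.63, 0.84, 0.57 and 0.94, and the interval of library 4 includes 1 (0.88 to 1.0031). For Taok2, at 0.89, 0.88, 0.94 and 0.94, every interval includes 1.

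Among 10 TEAD partner genes, which include Yap1, Tead1 and Tead2, 6 had enough counts and 2 of them, Wwtr1 and Vgll4, were at least 1.5-fold higher in every library, against 7.25% of all genes. Wwtr1, which encodes the YAP paralogue TAZ, was at 50.2, 24.9, 55.7 and 21.9 CPM in keratin-high cells and at 17.0, 11.1, 17.3 and 10.4 CPM in other cells. Unlike Yap1, it met the rule in all 4 libraries, with log2 folds of 1.56, 1.16, 1.68 and 1.08. Vgll4, which competes with YAP for TEAD proteins, had log2 folds of 2.66, 1.94, 2.65 and 1.49. Tead4, the TEAD gene linked to trophectoderm, had log2 folds of -0.50, -0.90, -0.11 and 0.27, and only the interval of library 2 excludes no difference (fold 0.54, 0.27 to 0.96).

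Of 18 other YAP target genes, 12 had enough counts. At least 1.5-fold higher in every library were 7 of them (Lats2, F3, Igfbp3, Crim1, Fjx1, Ptpn14 and Arhgef17) and 0 were as much lower, against 7.25% and 5.91% of all genes. Their median log2 fold was 1.51. F3, the gene of tissue factor, was at 23.7, 24.0, 71.7 and 19.6 CPM in keratin-high and 1.63, 2.22, 3.32 and 3.40 CPM in other cells. Igfbp3, a secreted binding protein of insulin-like growth factors, had log2 folds of 4.90, 2.79, 3.35 and 2.35, and Crim1, a transmembrane regulator of growth factors, had 3.29, 3.01, 3.64 and 2.12. Myof, Asap1, Gadd45a, Dock5 and Nuak2 did not meet the rule. Of these, Asap1 and Nuak2 had folds above 1 in all 4 libraries (Nuak2 log2 1.44, 0.93, 1.93 and 0.53), Dock5 had folds under 1 in all 4 (log2 -0.85, -1.23, -0.13 and -0.67) and Gadd45a in 3 of 4. The Myof fold had opposite signs in libraries 1 and 3 (log2 -1.50 and 1.08).

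SRF is a transcription factor whose cofactors respond to actin, and many of its targets encode contractile and cytoskeletal proteins. Of 16 SRF target genes 13 had enough counts, with a median log2 fold of 1.86. At least 1.5-fold higher in every library were 11 of the 13 and 0 were as much lower, against 7.25% and 5.91% of all genes. The list was chosen with earlier results of these data known, so this contrast only describes its genes. Flna and Srf itself had folds above 1 in all 4 libraries without reaching 1.5-fold in each. Acta2 and Cnn1 had enough counts only through their keratin-high UMIs, and with the filter on other cells alone 9 of 11 met the rule upwards, with a median log2 fold of 1.64. The smooth muscle genes Tagln, Acta2 and Cnn1 had median log2 folds of 6.44, 6.40 and 4.41. Tagln reached 836, 595, 1872 and 695 CPM in keratin-high cells, compared with 2.12, 5.09, 29.0 and 27.2 CPM in other cells. Acta2, the gene of smooth muscle actin, was at 185, 91.7, 794 and 85.7 CPM against 0.11, 1.38, 7.40 and 3.46 CPM.

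Over all kept cells, library 1 had the lowest level of every YAP gene except Tead1, which was lowest in library 4. Ccn1 was at 3.33, 5.04, 27.7 and 21.3 CPM in libraries 1 to 4, an 8.34-fold range (7.64 to 9.12), and Ccn2 was at 9.0, 14.3, 32.0 and 23.9 CPM, a 3.55-fold range. Ankrd1 was at 0.042, 0.13, 0.75 and 1.87 CPM. Amotl2 was at 16.7, 24.4, 37.5 and 42.0 CPM, a 2.52-fold range. Yap1 was at 17.9, 29.6, 22.4 and 31.6 CPM, Tead1 at 55.0, 51.8, 72.3 and 50.7 CPM, and Tead2 at 54.1, 62.6, 71.1 and 90.6 CPM, with ranges of 1.77-, 1.42- and 1.67-fold. Neighbours in these orders had overlapping intervals for Tead1 in libraries 2 and 4 (50.8 to 52.8 and 49.7 to 51.8 CPM) and, narrowly, for Ankrd1 in libraries 1 and 2 (0.017 to 0.086 and 0.085 to 0.19 CPM), and for no other pair. Such library differences were common, since 51.4% of 14407 genes differed at least 1.5-fold between their highest and lowest library, as did 6 of the 7 YAP genes, all but Tead1. Under TMM scaling Tead1 was at 1.51-fold and Tead2 at 1.47-fold.

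The order of the libraries changed for Ccn1 and, on few UMIs, for Ankrd1, and ended in a tie at the top for Ccn2, when keratin-high cells were left out. Among other cells alone, library 4 was highest and library 1 lowest for Ccn1 (10.5 and 1.07 CPM), whereas library 3 was highest over all kept cells. For Ankrd1, library 4 was highest over all kept cells, but library 3 was highest among other cells, at 0.13 CPM (0.078 to 0.20) compared with 0.026 CPM (0.0072 to 0.067) in library 4. This order rests mostly on the 1 cell with 12 Ankrd1 UMIs, since without the top cell of each library 7 and 2 UMIs remained, at 0.048 and 0.013 CPM. For Ccn2, libraries 3 and 4 were level among other cells, at 16.3 CPM each with overlapping intervals (15.6 to 17.0 and 15.7 to 17.0), whereas library 3 stood above library 4 over all kept cells. The target sum differed 3.38-fold (3.27 to 3.49) between its highest and lowest library over all kept cells, libraries 3 and 1, and 2.70-fold (2.60 to 2.80) among other cells, between libraries 4 and 1. For Amotl2, Yap1 and Tead2 the ranges of 2.44-, 1.78- and 1.64-fold among other cells stayed close to those over all kept cells. Each range sets single cultures side by side, without replicate error.

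Likeness between genes was described over 15 profiles, each the cells of 1 library in 1 keratin range of at least 50 cells. The profiles share cells' depth and their order by keratin, so these Pearson correlations of log2(CPM + 1) describe common order and carry no test. Ccn1 correlated with Amotl2 at 0.99, with Ccn2 at 0.98 and with Yap1 at 0.52, while Tead1 correlated with Tead2 at 0.09. Among 10333 genes, those most like Ccn1 were Zyx, Tagln and Irs2 (each 0.99), and those most like Ccn2 were Dusp5, Ppfibp1 and Col4a1 (0.99 for each). Amotl2 came closest to Irs2, Arpc5 and Amotl1 (each 0.99), and Ankrd1 to Klc1, Nsd3 and Daam1 (each 0.96). The values of Ankrd1 rest on few counts, with 7, 26, 130 and 326 UMIs in libraries 1 to 4. Its highest profile, cells of library 4 with 20 or more keratin UMIs, held 291 UMIs, of which 114 came from 1 cell. Yap1 was most like Ube2q1, Ube4b and Rexo4 (each 0.98), Tead1 most like Slc2a3, Otud1 and Kifap3 (0.96, 0.96 and 0.95), and Tead2 most like Mpdz, Zmynd8 and Ctbp1 (0.97, 0.97 and 0.96).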

How the data were processed

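Single-cell 3′ libraries (10x Genomics) of WT and Srrm2 hKO mESC were aligned to mm10 by the authors with Cell Ranger 6.1.2 and joined with its aggregation step, which subsamples reads to even out depth between libraries. The deposited matrix holds raw UMI counts per gene and barcode. From it, barcodes were kept when their UMIs and detected genes were at least their library's mean minus 1 SD and mitochondrial UMIs at most 10%, as the study's methods describe. The number of kept cells differs from the study's own count, so the cells are not exactly the same. Doublets were not called; cells over 2 times their library's median UMIs were left out in an alternative. UMIs were summed per library and keratin class. A gene was judged when each class of each library was expected to hold at least 5 of its UMIs at equal levels, and met the rule when all 4 libraries showed a CPM ratio of 1.5 or more one way. With libraries unassigned to samples, the planned edgeR test of Srrm2 hKO against WT was not made. The 1.5-fold rule and the interval of the fold were tried on simulated Poisson counts, which hold no variation between cells or cultures.

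The genes followed and the lists were chosen with earlier results of these data known. Genes named are the YAP genes, Srrm2, Krt8 and Krt18, the 3 judged genes of largest absolute median log2 fold in each of 4 lists, and the 3 most alike genes (at least 2000 UMIs). Wwc2, Stk3, Stk4, Tead4, the remaining list members and the marker genes were named after their values were seen. Gene positions come from GENCODE M21 by Ensembl identifier. Python 3.11.15, numpy 2.4.6, scipy 1.17.1, pandas 2.3.3, edgeR 4.0.16 (TMM) and DESeq2 1.42.0 (size factors) in R 4.3.3 were used, the last 2 for scaling only.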

Additional observations from a re-analysis of the deposited data

How the results depend on the processing

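The targets remained higher in keratin-high than in other cells in all 4 libraries, under every alternative for which a fold could be formed. These were 14 per target and library, but 12 for Ankrd1 in library 1, where other cells held 0 UMIs of it. Values of the target sum are given in the order of libraries 1 to 4, for the libraries in which they left the interval of the main value. A keratin cut of 3 UMIs gave 8.79, 3.75, 7.66 and 3.14, and a cut of 10 gave 13.7, 15.3, 7.88 and 6.17. The class set on thinned UMIs gave 7.60 and 4.82 in libraries 3 and 4. Leaving out cells of high UMI count gave 10.2 and 4.94 there. Without Fgf5 and Pou3f1 cells among the others, libraries 2 to 4 gave 7.74, 9.52 and 5.36. TMM scaling gave 9.22, 6.09, 7.13 and 4.08, and DESeq2 size factors 10.0, 6.20, 7.54 and 4.10. These scalings shifted all log2 folds by -0.31 to -0.08 and by -0.19 to -0.07. Depth-matched other cells gave 9.51, 7.32 and 4.10 in libraries 1, 3 and 4, and means over cells 7.81, 9.47 and 4.86 in libraries 2 to 4.

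Alternatives chosen after the data had been seen left out cells with shared barcodes, cells with fibroblast markers (10.2, 6.26, 7.33 and 3.79), cells low in mESC markers (10.1, 4.76, 6.89 and 3.61) and the top cell of each class (5.89 and 4.14 in libraries 2 and 4). The Ankrd1 fold of library 3 was 425 without cells with fibroblast markers, 130 without cells low in mESC markers and 87.2 without the top cell of each class. The Tead1 fold turned to 0.81 and 0.99 in libraries 2 and 4 at a keratin cut of 3. Of 390 alternative folds of single YAP genes, 269 lay within the main interval. The direction turned in 5, namely the 2 of Tead1 and 3 of Yap1 in library 4, whose main interval includes 1 (0.97 under TMM, 0.98 under DESeq2 scaling and 0.98 at a keratin cut of 10).

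The number of genes at least 1.5-fold higher was 794, and 1796 with no filter on counts, 388 with an expected count of 20 and 288 at a fold of 2. The number lower was 647, and 430 and 312 under the last 2. Leaving out each library in turn gave 820 to 1206 genes higher, 686 to 859 lower and 3 YAP genes higher in each case; 1206 came without library 4. The YAP genes meeting the rule were 2 with an expected count of 20 or without cells of high UMI count. They were also 2 with the filter on other cells alone (added after seeing the data, with 762 genes higher and 649 lower). In these settings Ccn1 had too few counts. At a keratin cut of 10 or without Fgf5 and Pou3f1 cells, 4 YAP genes met the rule. All genes higher were then 709 of 9108 and 1029 of 10925, against 794 of 10947 in the main setting. TMM and DESeq2 scaling left 584 and 626 genes higher and 823 and 775 lower, with the same 3 YAP genes.

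The range of the target sum over libraries was 3.14 and 3.12 under TMM and DESeq2 scaling and 2.70 among other cells, where library 4 was highest. Shares of cells with a target UMI depended on depth. They were 10.9%, 17.1%, 23.8% and 26.9% at 5000 UMIs, 19.4%, 30.6%, 35.6% and 43.0% at 10000, and 33.2%, 51.6%, 52.8% and 63.7% without thinning. No paired analysis was possible because no library number is tied to a replicate. Ankrd1 is limited by depth, with 0 to 19 UMIs in other cells.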
